A study of Mus musculus with 3 samples.

Results

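The dystrophin glycoprotein complex genes described here are dystrophin (Dmd), its homologue utrophin (Utrn), dystroglycan (Dag1), the sarcoglycans alpha (Sgca), beta (Sgcb) and delta (Sgcd), alpha-dystrobrevin (Dtna) and sarcospan (Sspn). Every probe that the array's own annotation assigns to one of these 8 genes was taken, whatever its value, which gave 22 of the 41174 gene probes. They lay on 31 spots per array. All 22 were among the 29576 probes, of 20603 genes, that passed a minimum mean signal of 20 and were tested. Expression was measured in hearts of C57/BL6 mice at 2 months of age on 3 two-colour Agilent arrays, which print 60-base probes and measure a Cy5-labelled and a Cy3-labelled RNA on the same spots. The sample labels assign Cy5 to Lrrc10-/- hearts and Cy3 to Lrrc10+/+ (WT) littermate hearts on each array, and each RNA was pooled from 2 hearts. Lrrc10 encodes a leucine-rich repeat protein of cardiomyocytes, and the mice lacking it served the study as a model of dilated cardiomyopathy.

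The dyes were not swapped, so a dye effect and the labelled genotype cannot be told apart. The labels call the WT RNA a reference pool and the methods speak of independent replicates. Whether a single WT pool served all arrays is therefore not settled, and if it did, the tests leave out the spread between WT pools. In bulk hearts, fewer cells of a type and less RNA per cell cannot be told apart. The targeted gene went against the labels. On arrays 1, 2 and 3 Lrrc10 gave a processed signal of 476, 443 and 352 in the Cy3 channel, against 14283, 20828 and 17703 in the Cy5 channel. Each array thus showed more Lrrc10 in the RNA labelled Lrrc10-/-, with a mean log2 ratio of Cy5 over Cy3 of 5.37 ± 0.41 (SD, n = 3 arrays; limma, adjusted p = 2.51e-04). Directions are therefore given by dye. Cy5 stands for the RNA with the label Lrrc10-/- and Cy3 for that with the label WT. If the channels hold the opposite genotypes, every direction below turns and no size changes. For Nppa, which the study describes as raised in its knockout hearts, the direction as labelled is also the opposite one. Across all tested probes the ratios of the arrays had correlations of 0.10 (arrays 1 and 2), -0.04 (1 and 3) and -0.18 (2 and 3), a description over probes that share the arrays.

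The dystrophin glycoprotein complex ties the cytoskeleton of a muscle fibre to the matrix around it. Dystrophin binds actin inside the cell and beta-dystroglycan at the membrane, alpha-dystroglycan binds laminin outside through its sugar chains, and the sarcoglycans and sarcospan form a subcomplex in the membrane beside dystroglycan. Dystrobrevin and the syntrophins bind dystrophin on its inner face. In heart muscle the complex protects the membrane during contraction, and mutations in Dmd and in several sarcoglycan genes cause cardiomyopathy together with muscular dystrophy. Utrophin can take the place of dystrophin when it is abundant at the membrane.

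The probe sequences decide which part of each message was read, so those of the main probes are shown 5′ to 3′, as deposited, in lower case throughout. The first 5 are whole:
Dmd A_52_P306697: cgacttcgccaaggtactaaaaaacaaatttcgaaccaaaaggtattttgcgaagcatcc
Utrn A_52_P257071: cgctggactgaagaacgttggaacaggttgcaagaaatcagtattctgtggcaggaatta
Utrn A_52_P294955: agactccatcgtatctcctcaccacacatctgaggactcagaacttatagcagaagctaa
Sgca A_51_P335491: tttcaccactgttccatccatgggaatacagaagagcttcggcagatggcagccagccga
Sgcd A_51_P389004: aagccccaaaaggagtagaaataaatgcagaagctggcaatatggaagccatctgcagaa
For a further 6 the first 30 of 60 bases are shown:
Dmd A_52_P81210: aagagcattctctcaatagaaatcactgtc
Utrn A_52_P569218: tttcctgcctgtatttgtatgcaaaatgat
Dag1 A_51_P148675: ttgaaacactcagtgggggacattttggtg
Sgcb A_51_P433960: cttagaactgtgtgggtaaaaaatgagcac
Sgcb A_52_P501697: aatgcatgtgaaccatgtttgtacagcgtt
Sspn A_51_P401659: agaatgtgttttaatggtacagtgcaagtt

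Over all 22 probes the share of G and C ran from 30% to 53.3%, with a median of 38.3%. In 20 probes at least 1 forward reading frame had no stop codon. The longest run of bases shared by 2 probes of the same gene was 10 bases over 30 pairs, and 9 bases over the 201 pairs of probes of different genes. The probes of a gene thus differed in sequence, and where each lies on the message was not determined. No pair among the homologous Dmd and Utrn or among the sarcoglycans shared a long run. The array's annotation ties 16 of the probes to a RefSeq transcript and 6 to a clone or GenBank record.

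None of the 22 probes passed a test for a difference between the channels after adjustment. By limma, 0 of 22 had an adjusted p under 0.05, against 0.00676% of all tested probes, and 0 of 22 had an unadjusted p under 0.05, against 3.07%. The methods' t-test gave 3 of 22 at an unadjusted p under 0.05, against 4.21% of all tested probes, and 0 of 22 after Benjamini-Hochberg adjustment. These 3 were the brightest Sgcb probe, the Sspn probe and Dtna A_51_P184300. A selection after the study's criteria took 0 of 22, against 0.916%. It was read here as a ratio of at least 1.2-fold the same way with an array p under 0.05 on each array, although the methods do not say that the p had to pass on each. A ratio of at least 1.2-fold the same way on each array, with no p, held for 0 of 22, against 3.67%. With 3 arrays the smallest p that an exact two-sided sign-flip test of a single probe can give is 0.25.

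The intervals bound the size of a difference. Over the brightest probe of each of the 8 genes, the 95% confidence intervals of the mean ratio from limma lay between 0.612-fold and 1.71-fold. Over the 18 probes that stood well above background in all 6 channels they lay between 0.541-fold and 1.85-fold. The other 4 of the 22 probes were near background in at least 1 channel, and 0 of 22 had a saturated channel.

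**Figure D1:**
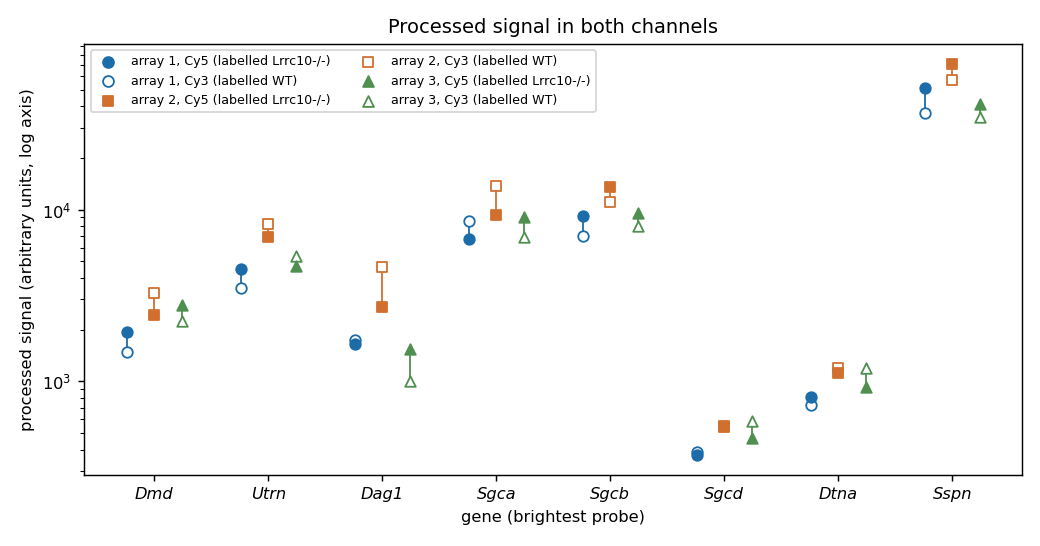
Processed signal (arbitrary units, log axis) of the brightest probe of each gene on the 3 arrays, with Cy3 (labelled WT) as open and Cy5 (labelled Lrrc10-/-) as filled symbols joined by a line. For Sgcb and Sspn the filled symbol lies above the open one on all 3 arrays and for Sgcd below it, whereas for the other 5 genes the order changes between arrays. Heights of different genes come from different probes and are not comparable.

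Dmd, the cytoskeletal anchor of the complex, showed no one direction. Its brightest probe, A_52_P81210, gave 1484, 3267 and 2229 in Cy3 and 1924, 2423 and 2795 in Cy5 on arrays 1, 2 and 3. Cy5 was the brighter channel on arrays 1 and 3 and Cy3 on array 2, and the ranges of the channels overlapped. The mean log2 ratio was 0.09 ± 0.45 (SD, n = 3; 95% interval -0.42 to 0.60, adjusted p = 1.00 by limma), a sign that turned when the background was subtracted without loess or when array 1 or array 3 was left out.

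This probe was printed on 10 spots of each array, which separates the error of a spot from the difference between arrays. The log2 ratio of its spots ran from 0.29 to 0.44 on array 1, from -0.48 to -0.37 on array 2 and from 0.27 to 0.39 on array 3. The SD between spots was 0.044, 0.034 and 0.043 on the 3 arrays, and the SD between the array means was 0.45. No spot of array 2 reached the spots of the other arrays. A larger SD between arrays than between spots was general: over the 189 tested probes printed 10 times, the median SD was 0.35 between arrays and 0.063 between spots.

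**Figure D2:**
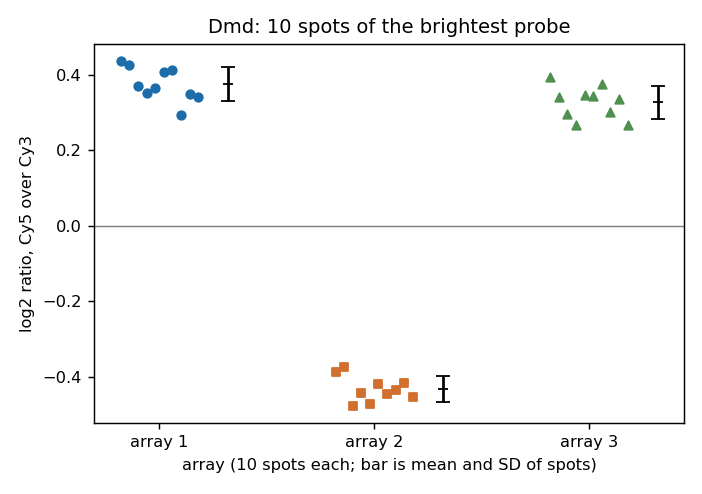
Log2 ratio of Cy5 over Cy3 for the 10 spots of Dmd probe A_52_P81210 on each array, with the mean and SD of the spots as a bar. The spots of array 2 lie between -0.48 and -0.37, below 0, and those of arrays 1 and 3 above 0.

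The second RefSeq probe of Dmd, A_52_P306697, gave 250, 377 and 308 in Cy3 and 251, 340 and 304 in Cy5. The channels lay close on every array, and the mean log2 ratio was -0.05 ± 0.08 (95% interval -0.55 to 0.44). It had a smaller SD between arrays than all but 3.96% of tested probes. Both remaining Dmd probes, named from clone records, were dim. A_52_P644572 gave 63.7, 32.9 and 72.5 in Cy3 and 50.6, 81.0 and 47.3 in Cy5, with a mean log2 ratio of 0.12 ± 1.03. A_52_P29655 gave 70.1, 37.7 and 22.5 in Cy3 and 36.9, 67.5 and 47.2 in Cy5, with a mean log2 ratio of 0.33 ± 1.09. Each was well above background in 5 of 6 channels and did not keep one order of the channels, and a ratio over a channel near background is not precise.

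Utrn, which binds the same partners as dystrophin, had no one direction either. Its brightest probe, A_52_P569218, gave 3470, 8265 and 5403 in Cy3 and 4531, 6957 and 4681 in Cy5. Cy5 was brighter on array 1 and Cy3 on arrays 2 and 3. The mean log2 ratio was -0.02 ± 0.35 (95% interval -0.49 to 0.44, adjusted p = 1.00 by limma), and it was above 0 under 3 other scalings of the signals and without array 2 or array 3.

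The 4 other Utrn probes had mean log2 ratios from -0.29 to -0.01, and the 5 probes did not share an order of arrays. On array 3 the ratio was 0.73 for A_52_P257071, with signals of 189 in Cy3 and 314 in Cy5. It was -0.63 for A_52_P294955, with 200 in Cy3 and 129 in Cy5. Both probes are assigned to the same RefSeq transcript, and they lay on opposite sides of 0 on the same array. Their means over the arrays were -0.01 ± 0.69 and -0.29 ± 0.32. The probe of a GenBank record, A_51_P160363, had 0.24, -0.71 and 0.12 on arrays 1, 2 and 3, and that of a clone record, A_52_P557113, had -0.67, 0.14 and -0.06.

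Dag1 encodes the precursor that is cut into alpha- and beta-dystroglycan, the link between laminin and dystrophin. Its brighter probe, A_51_P148675, gave 1745, 4628 and 1002 in Cy3 and 1648, 2695 and 1536 in Cy5. The second, A_52_P419118, gave 513, 1483 and 236 in Cy3 and 516, 777 and 426 in Cy5. Both probes had nearly equal channels on array 1, the brighter Cy3 on array 2 and the brighter Cy5 on array 3.

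The log2 ratios of the Dag1 probes were -0.08 and 0.01 on array 1, -0.78 and -0.93 on array 2 and 0.62 and 0.85 on array 3. The 2 probes share no run of more than 10 bases and still ordered the arrays alike. Their means were -0.08 ± 0.70 (95% interval -0.71 to 0.55) and -0.03 ± 0.89 (95% interval -0.78 to 0.73), both with an adjusted p of 1.00 by limma. A mean near 0 here covered array 2 at 0.582-fold and array 3 at 1.53-fold for the brighter probe. The mean of that probe ran from -0.43 without array 3 to 0.27 without array 2. Most of the spread was in Cy3, where the highest array was 4.62-fold over the lowest for the brighter and 6.28-fold for the dimmer probe, against 1.76-fold and 1.83-fold in Cy5.

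The sarcoglycans are single-pass membrane proteins of the muscle membrane that assemble with one another. Sgca, the muscle-specific alpha subunit, gave 8542, 13768 and 6908 in Cy3 and 6746, 9244 and 9017 in Cy5 with its only probe, A_51_P335491. Cy3 was brighter on arrays 1 and 2 and Cy5 on array 3, so the log2 ratios were -0.34, -0.57 and 0.38. The mean was -0.18 ± 0.50 (95% interval -0.70 to 0.35, adjusted p = 1.00 by limma) and turned to 0.02 without array 2.

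Sgcb, the beta subunit, had the brighter signal in Cy5 on all 3 arrays with both of its RefSeq probes. A_51_P433960 gave 7006, 11091 and 8068 in Cy3 and 9150, 13593 and 9567 in Cy5. A_52_P501697 gave 5472, 8618 and 5298 in Cy3 and 5831, 8838 and 7089 in Cy5. Although each array ordered the channels alike, the ranges of the channels overlapped for both probes. The log2 ratios were 0.39, 0.29 and 0.25 for the first and 0.09, 0.04 and 0.42 for the second, with means of 0.31 ± 0.07 (95% interval -0.10 to 0.71) and 0.18 ± 0.21 (95% interval -0.24 to 0.61). Both had an adjusted p of 1.00 by limma. The first probe had a smaller SD than all but 2.80% of tested probes.

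The third Sgcb probe, A_52_P144871 of a clone record, was well above background in 0 of 3 Cy3 channels and 1 of 3 Cy5 channels. It gave 33.8, 13.6 and 24.4 in Cy3 and 8.05, 27.8 and 39.9 in Cy5, and no fold change is given for it.

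Sgcd, the delta subunit, gave 385, 550 and 583 in Cy3 and 371, 541 and 466 in Cy5 with its only probe, A_51_P389004. Cy3 was the brighter channel on all 3 arrays, by little on arrays 1 and 2. The log2 ratios were -0.05, -0.02 and -0.32, with a mean of -0.13 ± 0.17 (95% interval -0.61 to 0.35, adjusted p = 1.00 by limma). The 3 sarcoglycans thus differed in the sign of their mean, and the difference between them was not tested.

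Sspn, a protein with 4 membrane-spanning segments that binds the sarcoglycans, gave 36747, 56554 and 34686 in Cy3 and 50923, 70947 and 41303 in Cy5 with its only probe, A_51_P401659. Cy5 was brighter on all 3 arrays, by 1.39-fold, 1.25-fold and 1.19-fold, although the ranges of the channels overlapped. No channel was saturated. The mean log2 ratio was 0.35 ± 0.11 (95% interval -0.08 to 0.77, adjusted p = 1.00 by limma), the highest mean of the 22 probes.

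Dtna encodes alpha-dystrobrevin, which binds dystrophin and the syntrophins. Its brightest probe, A_52_P558259, gave 725, 1194 and 1200 in Cy3 and 810, 1112 and 927 in Cy5, with a mean log2 ratio of -0.10 ± 0.27 (95% interval -0.57 to 0.36) that was above 0 under 3 other scalings. A_51_P184300 gave 874, 1252 and 847 in Cy3 and 721, 1137 and 739 in Cy5. Cy3 was the brighter channel of the second probe on all 3 arrays, with log2 ratios of -0.28, -0.14 and -0.20 and a mean of -0.20 ± 0.07 (95% interval -0.64 to 0.23, adjusted p = 1.00 by limma).

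The 3 dimmer Dtna probes crossed 0 between arrays. A_52_P108607 had log2 ratios of -0.59, 0.40 and 0.10 on arrays 1, 2 and 3, and A_52_P141715 had 0.00, -0.50 and 0.91. A_52_P668304, of a clone record, had 0.04, 0.60 and -0.14 and was well above background in 4 of 6 channels. On array 3 the 5 Dtna probes spread from -0.37 to 0.91, although 4 of them are assigned to RefSeq transcripts of the gene.

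**Figure D3:**
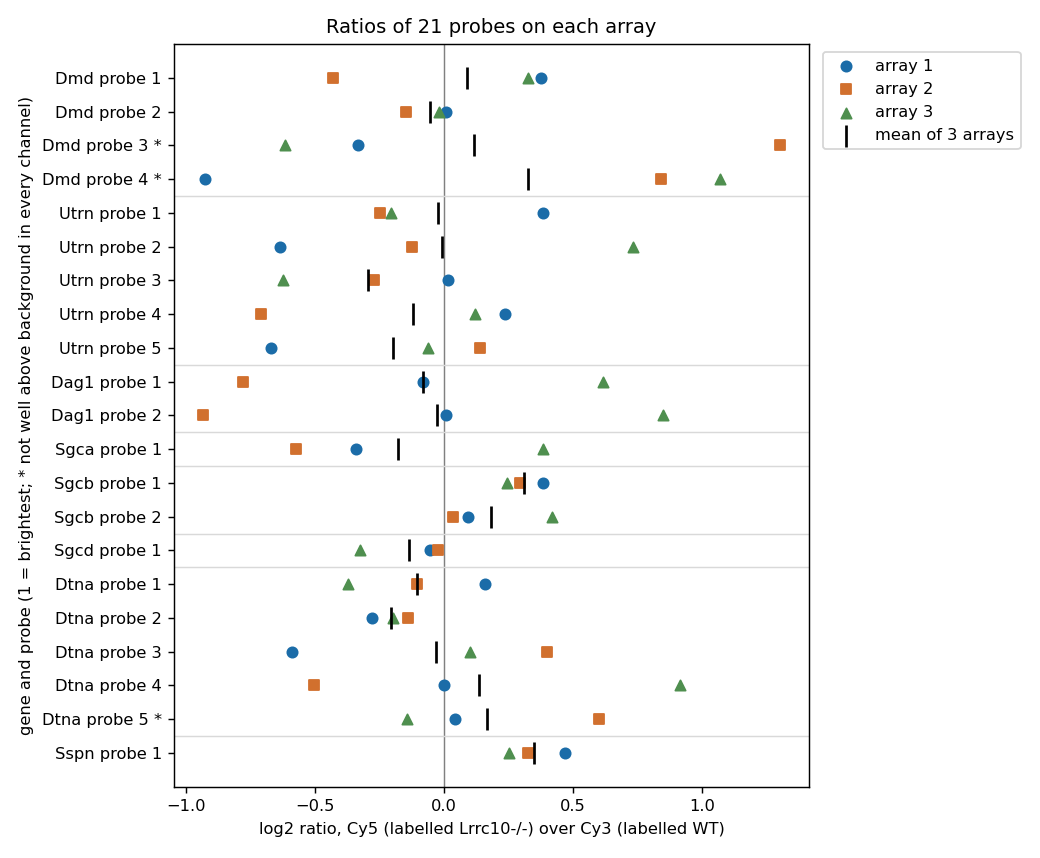
Ratio of the dyes (log2, Cy5 over Cy3; Cy5 bears the label Lrrc10-/-) of 21 probes on the 3 arrays (the third Sgcb probe, not above background in Cy3, is left out), grouped by gene and ordered by brightness, with the mean of 3 arrays as a vertical tick; an asterisk marks the 3 probes not well above background in every channel. The Sspn probe and the 2 brightest Sgcb probes lie above 0 on all 3 arrays, Sgcd and the second Dtna probe below 0, and the other 16 probes on both sides.

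Over the 22 probes, 3 lay above 0 on all 3 arrays, against 10.0% of all tested probes, and 2 lay below 0 on all 3, against 11.0%. These shares are near the background. By the brightest probe of each gene, Sgcb and Sspn lay above 0 on every array, Sgcd below 0 on every array, and Dmd, Utrn, Dag1, Sgca and Dtna on both sides. The median SD between arrays was 0.44 over the 22 probes and 0.39 over all tested probes.

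The median log2 ratio of the 8 brightest probes was 0.27 on array 1, -0.18 on array 2 and 0.25 on array 3, where the medians of all tested probes were 0.00, 0.01 and -0.01. Over all 22 member probes the medians were 0.00, -0.11 and 0.18. On arrays 1, 2 and 3, 11, 9 and 13 of the 22 lay above 0, and 6, 9 and 7 of the 22 had their lowest ratio there. The median of the 8 means was -0.05, against 0.00 over all tested probes. On array 2 the brightest probes of 6 of 8 genes were below 0, and on arrays 1 and 3 those of 3 genes each. Dmd, Utrn, Dag1 and Sgca had their lowest ratio on array 2, and Sgcb, Sgcd, Dtna and Sspn on array 3. Leaving out array 2 gave a median of the 8 means of 0.18, leaving out array 1 gave -0.09, and leaving out array 3 gave 0.00.

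Dim probes varied more than bright ones. The 5 member probes with a mean signal under 100 had a median SD of 1.03 and the 5 with a mean signal of at least 5000 one of 0.21, against 0.52 and 0.32 over all tested probes of the same ranges. All 5 dim probes are named from clone records.

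The genes that work with the complex were read from 4 lists. Of the relatives of the members, namely further sarcoglycans, syntrophins and dystrobrevins, 7 of 10 were tested. In limma 0 of 7 were called in either direction, 0 lay on one side of 0 on all arrays, and the medians on arrays 1, 2 and 3 were -0.06, 0.28 and -0.06. This order was not that of the members.

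Of the enzymes that build the sugar chains of dystroglycan, 16 of 17 were tested and 0 of 16 were called, with medians of -0.09, -0.12 and 0.00. Gmppb, which makes GDP-mannose, lay below 0 on all arrays, with a mean log2 ratio of -0.31 ± 0.30, and did not pass the test.

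The partners and matrix ligands of the complex, among them the laminins that dystroglycan binds, had a median below 0 on array 2. All 15 were tested, 0 of 15 were called, and the medians were 0.03, -0.67 and 0.29. On array 2, 12 of 15 were below 0, with -1.23 for the laminin beta chain gene Lamb2, -1.20 for the cytolinker gene Plec and -1.18 for the perlecan gene Hspg2, 3 genes picked after their values were seen. Of the 12 genes of the integrin and vinculin costamere, the other link of cytoskeleton and matrix, 1 had a saturated channel, 0 of 12 were called and the medians were 0.16, -0.49 and 0.12. Lims1, an adaptor of integrin-linked kinase, lay above 0 on all arrays with a mean of 0.45 ± 0.26, and Ilk, that kinase, below 0 with -0.16 ± 0.08. A lowest median on array 2 was common to 7 of the 12 lists read here, the cardiomyocyte markers left aside for saturation, and was not particular to genes of the complex.

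**Figure D4:**
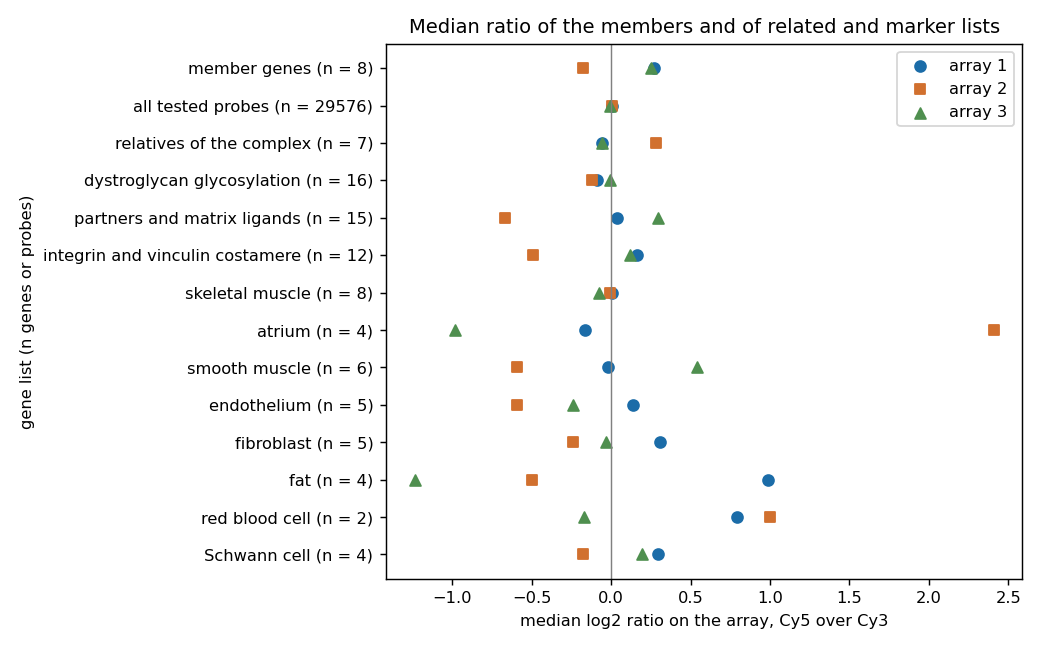
Median log2 ratio of Cy5 over Cy3 on each of the 3 arrays for the 8 member genes (brightest probe), all tested probes, 4 lists of related genes and 8 lists of cell type markers (the saturated cardiomyocyte list is left out, and 1 of 2 red blood cell genes has saturated channels), with the number of genes or probes beside each name. The members (-0.18) and 7 of the 12 lists, among them the partners (-0.67), endothelium (-0.60) and smooth muscle (-0.59), have their lowest median on array 2, where the atrium list has its highest (2.41).

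Markers of the cells a heart sample can hold also differed between arrays. Cardiomyocyte markers were well above background in every channel for 7 of 7 genes, so the labelled tissue showed its defining markers. Of these, 6 had a saturated channel, and 3 of them (Myl3, Tnni3 and Atp2a2) were saturated in 5 of 6 channels. A ratio of 2 saturated channels gives neither size nor sign, so no median and no direction is given for this list. Ryr2, the calcium release channel gene and the 1 gene of the list with no saturated channel, had log2 ratios of 0.23, -1.08 and -0.21 (a gene named for its lack of saturation). Skeletal muscle markers had 7 of 8 genes well above background, with medians of 0.00, 0.00 and -0.08. Myh4, 1 of them, was saturated in 3 of 6 channels and gave 129171, 284576 and 97647 in Cy3 on arrays 1, 2 and 3. The next brightest gene of the list, Myot, gave 5561, 8197 and 5835 in Cy3, and the dimmest, Pvalb, 49.6, 51.8 and 55.3. Which message the bright Myh4 probe read was not tested. The calcium buffer gene Pvalb of this list lay below 0 on all arrays with a mean of -0.85 ± 0.41. Its Cy5 signals were only 32.3, 34.1 and 22.2 on arrays 1, 2 and 3. The probe was well above background in 6 of 6 channels. Its signals were all under 100, the range in which ratios varied more, so the size of this mean is not precise.

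The atrium list had medians of -0.16, 2.41 and -0.98 over 4 genes. On array 2, among genes picked after their values were seen, the sarcolipin gene Sln had a ratio of 3.69 and the atrial myosin light chain gene Myl7 one of 3.41, while Nppa, the gene of atrial natriuretic peptide, lay below 0 on all arrays with a mean of -0.78 ± 0.14. All 4 genes were well above background in every channel. The summed signal of the list, from 76789 to 120935 in Cy3 and from 43550 to 84070 in Cy5, was nearly all Nppa and does not show the other 3 genes. Sln itself gave 47.3, 97.9 and 94.4 in Cy3 and 50.1, 1264 and 42.6 in Cy5. The array on which most member genes lay below 0 was thus the one on which Sln and Myl7 stood highest in Cy5, and their part in the members' ratios was not tested.

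Fat markers had medians of 0.99, -0.50 and -1.24, with 1 of 4 genes well above background in every channel and a summed signal between 116 and 415 in Cy3 and between 135 and 380 in Cy5. Smooth muscle markers had -0.02, -0.59 and 0.54, an order of arrays like that of Dag1. Their summed signal lay between 33388 and 79399 in Cy3 and between 35629 and 53457 in Cy5. Des, named for its share of the sum, gave 27283 of 51025, 44301 of 79399 and 8958 of 33388 in Cy3 on arrays 1, 2 and 3. The study counts its protein desmin among those of the Z-disc and costamere, so the sum is not smooth muscle alone. Cnn1 of this list lay above 0 on all arrays with 0.56 ± 0.30. Endothelial markers had 0.13, -0.60 and -0.24, and Tie1 lay below 0 on all arrays with -0.37 ± 0.16. Both red blood cell genes tested were well above background, but Hba-a1 was saturated in 2 of 6 channels, and Alas2, named as the other gene of the list, had 0.63, 1.04 and -0.32. Fibroblast markers had 0.31, -0.24 and -0.03, and Schwann cell markers 0.30, -0.18 and 0.19. No marker gene of the 9 lists was called by limma, and the part of these cells in the members' ratios was not tested.

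**Figure D5:**
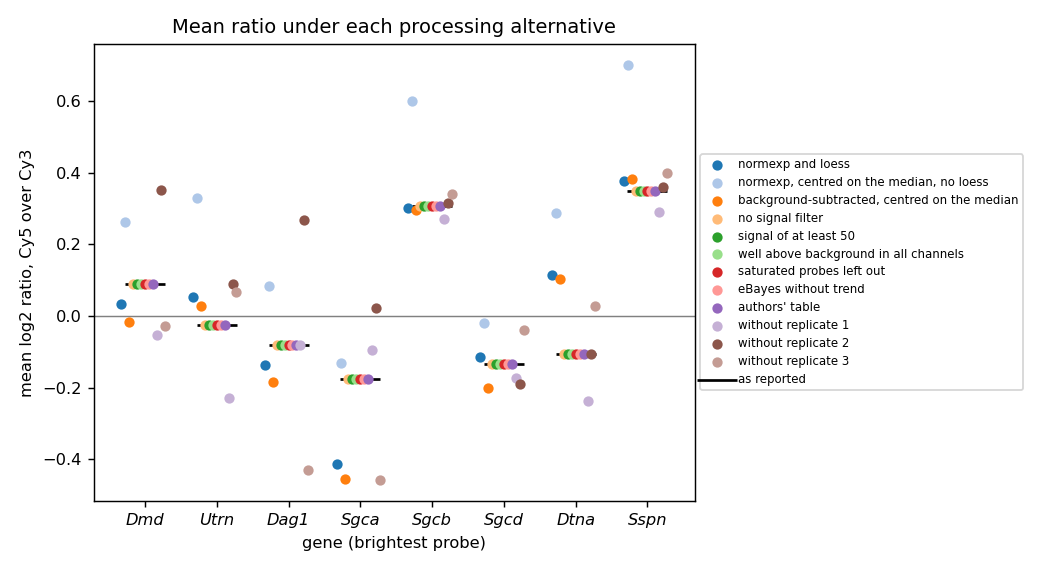
Mean log2 ratio of Cy5 over Cy3 of the brightest probe of each gene as reported (black bar) and under 12 processing alternatives (points), 6 of which leave the mean as it is. Sgcb (0.27 to 0.60) and Sspn (0.29 to 0.70) stay above 0 and Sgcd (-0.20 to -0.02) below 0, and the other 5 genes cross 0.

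By the brightest probe, the sign of the mean depended on the scaling of the signals for 4 of the 8 genes (Dmd, Utrn, Dag1 and Dtna). It depended on single arrays for these 4 and Sgca. The mean of the brightest probe kept its sign for Sgcb, Sspn and Sgcd and changed sign in at least 1 alternative for the other 5 genes. Only 6 of the 12 alternatives, the 3 scalings and the 3 fits without an array, can move a probe's mean. Of the 14 other probes, 10 changed sign in at least 1. The upper ends for Sgcb and Sspn came from normexp background correction centred on the median with no loess. That setting also gave the only change of sign of the brighter Dag1 probe under a scaling, whereas the dimmer Dag1 probe was above 0 under all 3 scalings. It put the median of all tested probes at 0.02 and that of the 4031 probes with a mean signal of at least 5000 at 0.32. The brightest probes of Utrn, Sgca, Sgcb and Sspn reach 5000, and their values under it are to be read against the shift of 0.32. Those of Dmd, Dag1, Sgcd and Dtna are dimmer, and no median of their range is given. No member probe was called by limma under any of the alternatives, and the lowest adjusted p was 0.081.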

How the data were processed

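The authors deposited the Agilent Feature Extraction 9.1.3.1 output of each array. Of the columns used, the mean and background intensity carry no normalization, whereas the processed signal intensity was deposited after background subtraction and dye normalization within the array. The authors' log10 ratio divides the processed Cy5 by the processed Cy3 signal of a spot, and a p-value deposited with it tests that spot alone. A further deposited table repeats these log10 ratios apart from 1 value it lacks.

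Outlier spots (11, 21 and 4 on arrays 1 to 3) were dropped, saturated spots kept, spots of a probe averaged, and the deposited log10 ratios converted to log2. Probes with a geometric mean signal of at least 20 and a value on all 3 arrays were fitted with limma 3.58.1 (R 4.3.3; intercept, eBayes with trend, two-sided, Benjamini-Hochberg over 29576 probes). On simulated data with these 29576 probes, the fit recovered 0, 19, 40 and 48 of 50 probes changed by 1, 2, 4 and 6 on the log2 scale. It made 1 false call. The noise was normal with each probe's own SD over the 3 arrays, so the recovery holds for that setting alone. The arrays share a slide and scan, so no batch could be tested. The number of arrays limits the precision.

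Members and gene lists were chosen with earlier results of these data known. All member probes are reported. From each list, the 2 highest and 2 lowest mean ratios were named among genes with one sign and well above background on all arrays; some items that this rule takes are not reported here, and genes outside it are named where the text says how they were picked. A list gene was read by its brightest probe. Alternatives were other background corrections, scalings and filters, the authors' table, a fit without trend, the methods' t-test and leaving out each array.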

Additional observations from a re-analysis of the deposited data

How the results depend on the processing

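No member probe passed limma's adjusted threshold under any alternative, and the 3 of the methods' t-test held at its unadjusted p alone. Over all tested probes, 2 were called brighter in Cy5 and 0 in Cy3. For Cy5 this became 1 with normexp and loess, with plain background subtraction, with a minimum signal of 50 and among probes well above background in all channels, 0 with no filter, and 33 with normexp centred on the median. The same scaling gave 8 for Cy3. The methods' t-test gave 594 and 650 unadjusted, and 0 for Cy5 after adjustment. Leaving out an array gave 0 to 409 for Cy5 and 0 to 134 for Cy3, both highest without array 3. The selection after the study's criteria took 0 to 1 member probes (1 without array 1). Genes with one sign, 3 as reported, were 4 with normexp centred on the median, and 4 to 5 with an array left out, where only 2 arrays had to share it. The median of the member genes was 0.28 with normexp centred on the median. Sign changes among brightest probes were as follows, and the cause was not tested. With background subtraction, Dmd was -0.016, Utrn 0.029 and Dtna 0.10. With normexp and loess, Utrn was 0.053 and Dtna 0.11. With normexp centred on the median, Utrn was 0.33, Dag1 0.084 and Dtna 0.29. This setting put the median of bright probes, of which only Utrn is 1 here, at 0.32 and that of all tested probes at 0.02. Leaving out an array gave -0.052 to 0.35 for Dmd, -0.23 to 0.089 for Utrn, -0.43 to 0.27 for Dag1, -0.46 to 0.022 for Sgca and -0.24 to 0.029 for Dtna. Each ratio already pairs both labelled genotypes within an array, so no further pairing was fitted.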

Other observations

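The channels differed in how much they varied between arrays, a comparison made after the data were seen. Each signal was taken relative to the median of its channel on the log2 scale. Over all tested probes the median SD between arrays was 0.38 in Cy3 (labelled WT) and 0.22 in Cy5 (labelled Lrrc10-/-), and the SD was larger in Cy3 for 77.7% of them. Over the 22 probes of the dystrophin glycoprotein complex the median SD was 0.45 in Cy3 and 0.23 in Cy5, and it was larger in Cy3 for 14 of 22 probes and for the brightest probe of 7 of 8 genes. These are shares of 63.6% and 87.5%, and their difference from all tested probes was not tested.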
